A study of Mus musculus with 18 samples.

Results

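The genes described here are those carried by the mouse mitochondrial genome. They were chosen as every gene symbol that starts with "mt-" after transcript values were summed per symbol, which gave 13 genes of the 33641 in the table. All 13 code for proteins. The GENCODE M21 annotation (GRCm38, the assembly also called mm10) places 37 genes on this genome. The table does not hold the annotated transcripts of its 2 ribosomal RNA genes and 22 transfer RNA genes. These were therefore not analysed here, and the shares of TPM given below leave them out. The study sequenced RNA of the quadriceps, a thigh muscle, and of white adipose tissue from mice made obese by diet, after 12 weeks of prednisone, a synthetic glucocorticoid. All mice were male wild-type DBA/2J animals labelled as about 20 weeks of age. They had received a high-fat diet for 12 weeks and stayed on it during the 12 weeks of injections, so no group was lean. The diet and injection periods together exceed the labelled age, and the time point that this age refers to was not settled. The vehicle group received vehicle daily, per the labels, the weekly group 1 mg/kg prednisone by intraperitoneal injection once a week, and the daily group the same dose once a day. Tissues were taken 24 hours after the last injection, and both tissues came from each of 9 mice, 3 per regimen, which gives 18 libraries. The series' design text names 1 library fewer for adipose tissue under daily prednisone than the 3 that the labels and the table hold.

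Mitochondria keep a small circular genome whose genes encode core subunits of the machinery of oxidative phosphorylation. All other subunits of these complexes are made from nuclear genes and imported, so both genomes must supply each complex. The genes are read from both DNA strands as long precursor RNAs that are cut, mostly at the transfer RNAs between the genes, into messengers, most of them with short poly(A) tails. Some messengers carry a pair of genes whose reading frames overlap. Copies of mitochondrial DNA have also been inserted into the nuclear genome during evolution, and where such a copy is recent its sequence is almost the same as that of the mitochondrial gene. In skeletal muscle, fibres rich in mitochondria hold much of this RNA, and white fat cells hold less.

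The 13 genes serve 4 complexes. There are 7 subunits of complex I, the NADH dehydrogenase (mt-Nd1, mt-Nd2, mt-Nd3, mt-Nd4, mt-Nd4l, mt-Nd5 and mt-Nd6), cytochrome b of complex III (mt-Cytb), 3 subunits of complex IV, the cytochrome c oxidase (mt-Co1, mt-Co2 and mt-Co3), and 2 subunits of ATP synthase (mt-Atp6 and mt-Atp8). mt-Nd6 is the only 1 of the 13 annotated on the minus strand of the mitochondrial sequence, and is usually called the light strand gene. Each gene has 1 transcript in the table.

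For 7 of the 13 genes the reference holds a nearly identical copy in the nuclear genome, found by aligning all annotated transcripts to the mitochondrial genes and keeping matches of at least 99% identity. These copies are annotated as unprocessed pseudogenes and lie side by side on the minus strand of chromosome 1, within chr1:24611535-24616197. They are Gm28439 for mt-Nd4, Gm10222 for mt-Nd4l, Gm28438 for mt-Nd3, Gm28437 for mt-Co3, Gm10925 for mt-Atp6, Gm28661 for mt-Co2 and Gm29216 for mt-Co1. The other 6 genes (mt-Nd1, mt-Nd2, mt-Nd5, mt-Nd6, mt-Atp8 and mt-Cytb) have no such copy among annotated transcripts at 60 aligned bases or more. Unannotated sequence was not searched. The last 43 bases of mt-Atp8 are also the start of mt-Atp6, which Gm10925 matches from its first base. The following stretches of the GENCODE transcripts show how little separates a gene from its copy, because the results turn on this. mt-Nd3 (chrM:9459-9806, plus strand) and Gm28438 (chr1:24612775-24613119, minus strand) share 345 aligned bases with 1 mismatch, T3C, where positions count from 1 at the gene's 5′ end and the mitochondrial base comes first. The first 33 bases of each are given 5′ to 3′, with the differing base in capitals.
mt-Nd3: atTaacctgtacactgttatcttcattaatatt
Gm28438: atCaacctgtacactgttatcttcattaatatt
mt-Co2 (chrM:7013-7696, plus strand) and Gm28661 (chr1:24614885-24615565, minus strand) are identical over all 681 bases of the copy, and the mitochondrial gene is annotated 3 bases longer. The last 40 bases of each are given, with the bases that lie outside the shared stretch in capitals.
mt-Co2: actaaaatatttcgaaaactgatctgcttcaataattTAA
Gm28661: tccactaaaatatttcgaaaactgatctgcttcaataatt
mt-Co1 (chrM:5328-6872, plus strand) is matched by Gm29216 only over its last 483 bases, with 1 mismatch, A1066T, shown in capitals.
mt-Co1: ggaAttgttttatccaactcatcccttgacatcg
Gm29216: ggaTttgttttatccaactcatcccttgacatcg
The copies of mt-Atp6 (678 bases), mt-Co3 (783 bases), mt-Nd4 (876 bases of its 1378) and mt-Nd4l (294 bases) have no mismatch to their gene. A read from such a stretch carries nothing that tells the gene from the copy.

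Neighbouring mitochondrial genes also share bases with each other. mt-Atp8 and mt-Atp6 overlap by 43 bases on the same strand, mt-Nd4l and mt-Nd4 by 7 bases on the same strand, mt-Atp6 and mt-Co3 by 1 base, and mt-Nd5 and mt-Nd6 by 14 bases on opposite strands. The start of mt-Atp6 is given with the bases that are also the end of mt-Atp8 in capitals, and the start of mt-Nd4 with those that are also the end of mt-Nd4l.
mt-Atp6: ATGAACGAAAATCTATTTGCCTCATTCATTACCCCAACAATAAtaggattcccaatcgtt
mt-Nd4: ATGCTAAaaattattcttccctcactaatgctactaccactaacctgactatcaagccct
The library kit marks the strand of each RNA, but whether quantification used the strand is not given in the sources used here, so reads from the opposite strand of mt-Nd6 could not be told apart from its own. mt-Atp8 is the shortest of the 13 genes, 204 bases, and the value of so short a gene depends on the length of the sequenced fragments, which is not given either.

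Values are TPM, the usual length-normalised measure of transcript abundance, in which the transcripts of each library sum to 1000000 and long and short genes are put on the same footing. The number of reads behind each library is not given in the sources used here. At 1 TPM or more, 11781 to 12200 genes were found per muscle library and 13413 to 14076 per adipose library. The tissues carried their markers: the 12 skeletal muscle fibre genes of a marker list summed to between 124000 and 144000 TPM per muscle library and to between 178 and 1740 TPM per adipose library. The 9 white adipocyte genes gave sums from 36100 to 40100 TPM per adipose library and from 880 to 2060 TPM per muscle library. Adipose libraries weekly 2, weekly 3 and daily 2 held the most muscle transcripts, with sums of 1740, 1280 and 1090 TPM against at most 292 TPM in the other 6. The third library of a group held the middle value for 45.9% of gene and group combinations in muscle and 47.3% in adipose tissue over all genes tested, and for 29 of 78 combinations, or 37.2%, among the 13 genes. Libraries of which none stands apart would give 33.3%. Whether the third library of a group is a separate mouse, as the labels have it, was not tested, and n counts it as 1. Results are therefore also given without the third libraries. The p-values measure the spread between these mice, 3 per group. A change in the level of an RNA in whole tissue cannot be told apart from a change in the share of cells that hold it.

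In muscle the most abundant of the 13 genes was mt-Atp8, at 52046 ± 6787 TPM (mean ± SD over all 9 muscle libraries, as for the values that follow). mt-Atp6 at 38465 ± 4977 TPM, mt-Co1 at 35322 ± 2141 TPM and mt-Co3 at 33731 ± 4004 TPM came next and did not differ from each other beyond their spread. mt-Nd1 at 24290 ± 1452 TPM was followed by mt-Co2, mt-Nd4l and mt-Cytb at 21240 ± 7724, 20111 ± 1312 and 19156 ± 872 TPM, whose spreads also overlapped. mt-Nd4 (16505 ± 754 TPM) and mt-Nd2 (14984 ± 962 TPM) lay just below, and mt-Nd6 (6413 ± 571 TPM), mt-Nd3 (4186 ± 2071 TPM) and mt-Nd5 (3916 ± 166 TPM) formed the low end. mt-Co2 and mt-Nd3, both with a nearly full-length copy, had the widest spread for their level.

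White adipose tissue had a similar order at lower levels. mt-Atp8 stood at 27746 ± 3985 TPM, mt-Co1 at 20382 ± 2221 TPM and mt-Atp6 at 17289 ± 2573 TPM (mean ± SD over all 9 adipose libraries). A middle group within each other's spread held mt-Co3 at 12507 ± 1877 TPM, mt-Nd4l at 12398 ± 1777 TPM and mt-Cytb at 11832 ± 937 TPM. mt-Nd1, mt-Nd4, mt-Co2 and mt-Nd2 ran from 9923 ± 696 down to 6985 ± 664 TPM. mt-Nd6 (5588 ± 635 TPM) and mt-Nd5 (3069 ± 316 TPM) followed, and mt-Nd3 was lowest at 808 ± 250 TPM.

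**Figure D1:**
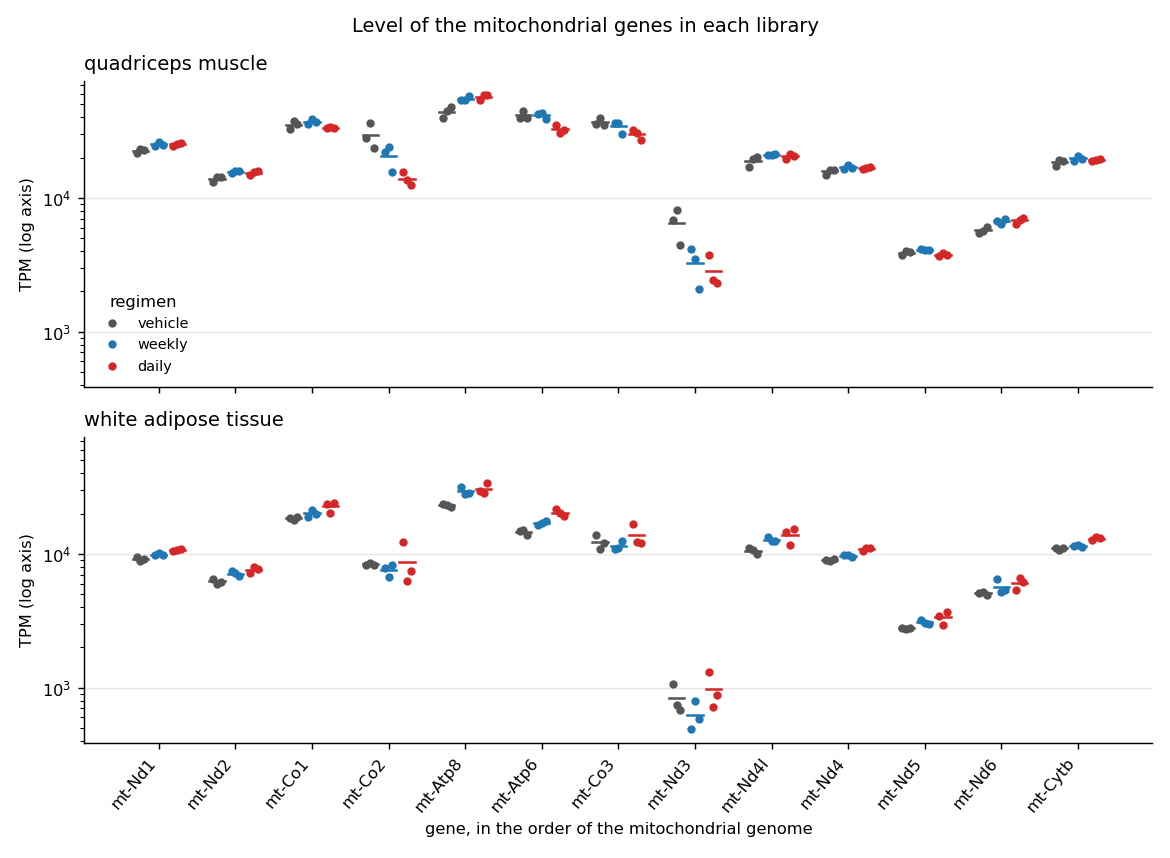
TPM of the 13 mitochondrial genes (log axis) in each of 9 quadriceps and 9 adipose libraries, with genes in genome order, a point per library and a line at each group's mean. In muscle the vehicle libraries of mt-Co2 (23678 to 36057 TPM) and mt-Nd3 (4469 to 8171 TPM) lie above the daily libraries, while those of mt-Atp8 (39280 to 47566 TPM) lie below them.

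All 13 genes were higher in muscle than in adipose tissue of the same mouse. In a limma model of the per-mouse difference in log2(TPM + 1), with p-values adjusted by the Benjamini-Hochberg method over 11737 genes, 13 of 13 were called higher at an adjusted p under 0.05, against 13% of all genes tested called higher, 80.1% called lower and 93.1% in either direction. The members' median difference was 0.91 on the log2 scale, and that of all genes tested was -0.98. The differences ran from 0.20 ± 0.05 (SE, adjusted p = 0.00283, n = 9 mice) for mt-Nd6 to 2.28 ± 0.13 for mt-Nd3. mt-Nd1, a complex I subunit with no close copy, had a ratio of muscle to adipose TPM of 2.45 ± 0.127 (SD), from 2.28 to 2.62 in the 9 mice. The ratio of mt-Nd6 was 1.15 ± 0.0975, from 1.03 to 1.31. Over 19 alternative settings, scaling between libraries among them, the log2 difference ran from 0.151 to 1.42 for mt-Nd6. For mt-Nd1 it ran from 1.28 to 2.51, so the sizes given here hold for TPM as listed. Without the third libraries 12 of 13 were called, and mt-Nd6 was not (0.15, adjusted p = 0.0748). The ratio of mt-Nd3 ranged from 2.64 to 11.0 as listed and from 2.85 to 3.41 once Gm28438 was added to it. With the close copies added all 13 were again called, against 13% of all genes called higher and 93.2% in either direction.

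mt-Nd6, the light strand gene, made up a smaller part of the listed mitochondrial TPM in muscle, and was the only gene whose share was tested. Reads from the opposite strand could not be told apart from its own, and its capture in mRNA libraries was not tested. mt-Nd6 was 2.22 ± 0.249% of the summed TPM of the 13 genes in muscle and 3.82 ± 0.377% in adipose tissue (SD, n = 9 each). It was lower in muscle in 9 of 9 mice, by 0.843 to 2.19 percentage points (exact sign-flip permutation test, two-sided, p = 0.00391, the smallest that 9 mice allow, adjusted p = 0.0156 over 8 single values tested). With the close copies added the shares were 1.82 ± 0.0808% and 3.05 ± 0.224%, and 9 of 9 mice again had the lower share in muscle. As listed, the mean ratio of muscle to adipose TPM was lowest for mt-Nd6, at 1.15. Next came mt-Nd5 (1.29), mt-Cytb (1.63), mt-Nd4l (1.65) and mt-Nd4 (1.68), all on the plus strand. A smaller share in muscle is therefore not shown to be particular to the light strand gene.

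Together the 13 genes took 29.0 ± 1.51% of all TPM in muscle and 14.7 ± 1.43% in adipose tissue (SD, n = 9 each). The share was higher in muscle in 9 of 9 mice, by 10.9 to 18.4 percentage points (exact sign-flip permutation test, two-sided, p = 0.00391, adjusted p = 0.0156). In muscle the shares were 27.6, 31.3 and 28.8% in the vehicle libraries, 30.1, 31.2 and 29.1% in the weekly libraries and 27.8, 27.9 and 27.5% in the daily libraries. The vehicle libraries spanned the values of both other groups there, except that daily 3 lay just below them. In adipose tissue they were 13.5, 12.9 and 13.0% with vehicle, 14.8, 14.5 and 14.6% with weekly and 16.9, 15.3 and 16.6% with daily prednisone. These 3 adipose groups did not overlap: vehicle was lowest and daily highest.

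The copies on chromosome 1 held a further 4.17 to 11.7% of the TPM of a muscle library and 3.54 to 6.4% of that of an adipose library. In muscle their share was 5.03, 4.17 and 6.87% with vehicle, 7.49, 8.45 and 10.4% with weekly and 9.71, 10.8 and 11.7% with daily prednisone, so every treated library lay above every vehicle library. Gene and copy together took 34.6 ± 1.7, 38.9 ± 1.12 and 38.5 ± 0.82% of muscle TPM in the vehicle, weekly and daily groups (SD, n = 3), and 17.6 ± 0.417, 19.3 ± 0.48 and 21.4 ± 0.783% of adipose TPM.

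**Figure D2:**
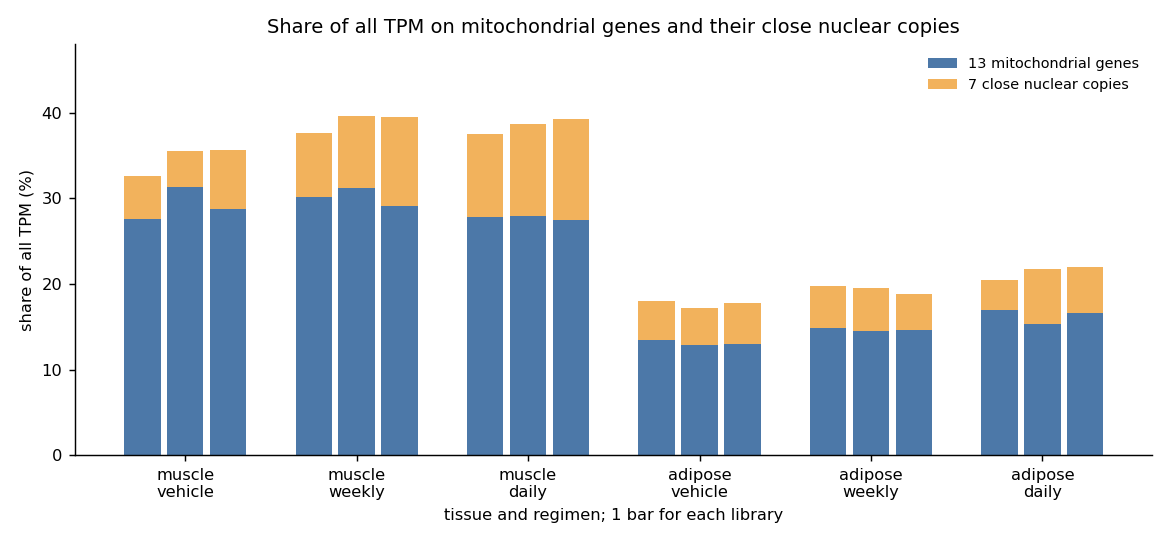
Share of all TPM (percent) on the 13 mitochondrial genes and, stacked on it, on their 7 close nuclear copies, with 1 bar for each of the 18 libraries. The lower part of the muscle bars lies between 27.5 and 31.3%, and the upper part grows from 4.17 to 6.87% with vehicle to 9.71 to 11.7% with daily prednisone.

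With 3 libraries a group an exact permutation test cannot give a p below 0.1. The difference in share between daily and vehicle was -1.52 percentage points in muscle (exact permutation test, two-sided, p = 0.3, adjusted p = 0.343) and 3.11 in adipose tissue (p = 0.1, adjusted p = 0.133). Without vehicle 1 the muscle value was -2.33 and without vehicle 2 it was -0.492. Between weekly and vehicle it was 0.861 in muscle (exact permutation p = 0.5) and 1.46 in adipose tissue (exact permutation p = 0.1). The muscle value for weekly prednisone was 0.0455 without vehicle 1, 1.89 without vehicle 2, 0.325 without weekly 2 and 1.39 without weekly 3, and 4.26 with the close copies added (exact permutation p = 0.1). The muscle difference for daily prednisone changed sign with the close copies added, to 3.86 percentage points with no overlap of the groups (exact permutation p = 0.1). The adipose differences kept their sign at 3.74 and 1.7 percentage points.

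The way TPM was divided between a gene and its copy differed from library to library. For 4 genes (mt-Co2, mt-Atp6, mt-Co3 and mt-Nd3) the copy is within 3 bases of the gene's length and was listed above 0, so that the percent of the pair's TPM assigned to the mitochondrial gene can be read directly. For mt-Co2, the subunit of complex IV that takes up electrons from cytochrome c, it was 81.6, 94.0 and 62.9% in the muscle vehicle libraries, 54.4, 54.7 and 36.2% in the weekly and 37.1, 32.8 and 29.0% in the daily libraries. Both treated groups lay below the vehicle group, and they overlapped each other, since weekly 3 was below daily 1. For mt-Atp6, the channel subunit of ATP synthase, it was 90.8, 94.6 and 81.3% with vehicle, 83.5, 78.7 and 73.4% with weekly and 67.8, 56.9 and 58.3% with daily prednisone, and the daily libraries lay below all others. For mt-Co3, a core subunit of complex IV, the values were 96.9, 99.1 and 89.8% with vehicle and 79.3, 73.6 and 64.8% with daily prednisone, again without overlap. For mt-Nd3, a small membrane subunit of complex I, they were 40.5, 48.4 and 25.7% with vehicle and 20.7, 12.8 and 12.2% with daily prednisone. In each of the 4 pairs the daily muscle libraries thus lay below the vehicle libraries.

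In adipose tissue daily library 1 had the highest percent on the mitochondrial gene in 4 of 4 pairs, as muscle vehicle library 2 had in muscle. For mt-Co2 the adipose values were 41.2, 45.0 and 42.3% with vehicle, 35.2, 32.6 and 40.4% with weekly and 56.9, 26.3 and 32.5% with daily prednisone. Here the weekly libraries lay below the vehicle libraries and the daily libraries on both sides of them. Gm28439 and Gm10222, the copies of mt-Nd4 and mt-Nd4l, were listed at 0 in all 18 libraries. A further 9 copies with 90% identity or more that are in the table reached at most 17.6 TPM. What moved the division was not tested.

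**Figure D3:**
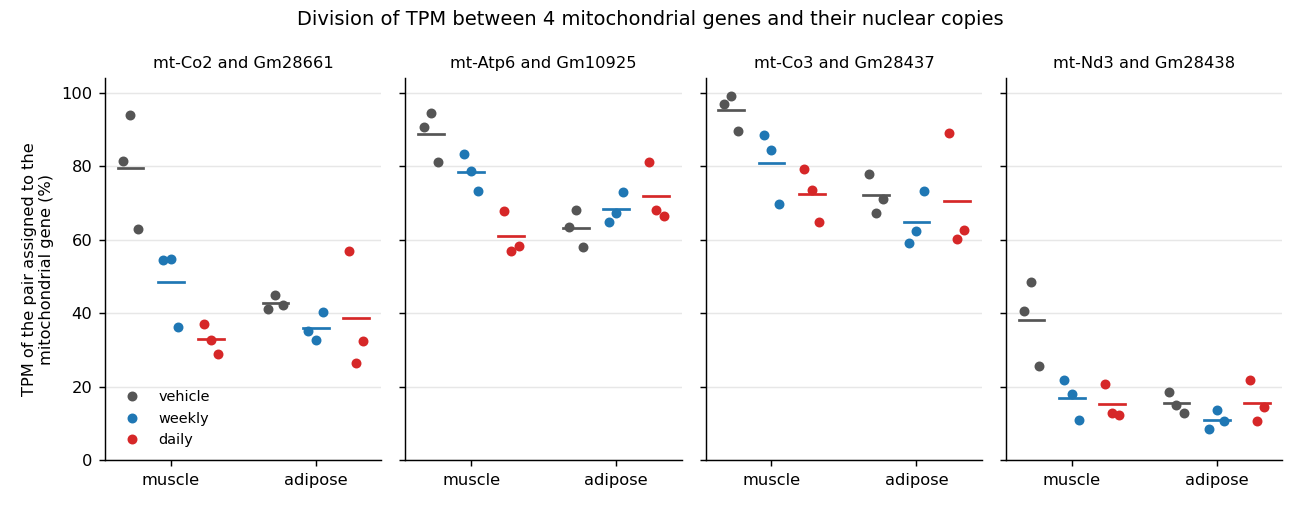
Percent of the summed TPM of a gene and its nuclear copy that was assigned to the mitochondrial gene, for 4 pairs, with a point per library and a line at each group's mean. In muscle the daily libraries of mt-Co2 (29.0 to 37.1%) lie below the vehicle libraries (62.9 to 94.0%), and the same order holds in the other 3 panels.

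Replicates came closer together when gene and copy were added. Over these 4 genes and 6 groups the coefficient of variation between the 3 libraries had a median of 11.1% for the gene as listed and 3.77% for the sum, and it was lower for the sum in 23 of 24 cases. A sum of entries that divide a total tends to vary less than either entry, and the origin of the reads was not tested. mt-Nd3 in muscle after weekly prednisone went from 32.9 to 1.27%. mt-Co2 in adipose tissue after daily prednisone went from 36.5 to 5.34%. With its copy added mt-Atp6 went from 38465 to 50913 ± 3717 TPM in muscle and from 17289 to 25407 ± 2477 TPM in adipose tissue. mt-Atp8, which overlaps it, stood at 52046 ± 6787 and 27746 ± 3985 TPM. Adding a copy can only raise a value, and why these levels lay near each other was not tested. mt-Nd4l and mt-Nd4, whose copies were listed at 0, stood at 20111 ± 1312 and 16505 ± 754 TPM in muscle. Adding copies was chosen after seeing the data, and each regimen comparison is given both ways. For values of single genes and the mt-Nd6 share, each copy was weighted by its length relative to the gene. For shares of all TPM and the ratio to nuclear genes, copies were added unweighted.

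Daily prednisone against vehicle in muscle gave the most calls among the 13 genes. In a limma model over the 9 muscle libraries, fitted to 12246 genes and adjusted over all of them, mt-Atp8 and mt-Nd6 rose and mt-Co2, mt-Nd3 and mt-Atp6 fell. These 5 of 13 stand against 13.7% of all genes tested, of which 1.91% were called higher and 11.8% lower. The members' median difference was 0.05 and that of all genes -0.09 on the log2(TPM + 1) scale. mt-Atp8, the small accessory subunit of ATP synthase, was listed at 39280, 44789 and 47566 TPM with vehicle and at 53997, 58831 and 58576 TPM with daily prednisone. Every daily library was above every vehicle library (log2 difference 0.38 ± 0.07 SE, limma adjusted p = 0.0117). mt-Nd6, the light strand subunit of complex I, had 5496, 5641 and 6111 TPM with vehicle and 6427, 6855 and 7102 TPM with daily prednisone. Its groups did not overlap either (0.24 ± 0.06, limma adjusted p = 0.0264).

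The 3 genes that fell as listed all have a copy of nearly their own length. mt-Co2 stood at 28132, 36057 and 23678 TPM with vehicle and 15488, 13714 and 12523 TPM with daily prednisone. The groups lay apart, and the log2 difference was -1.06 ± 0.18 (limma adjusted p = 0.00782). mt-Nd3 was listed at 6779, 8171 and 4469 TPM with vehicle and 3769, 2443 and 2327 TPM with daily prednisone (-1.18 ± 0.30, limma adjusted p = 0.0323). mt-Atp6 was listed at 39812, 44844 and 39661 TPM with vehicle and 35129, 30399 and 31986 TPM with daily prednisone (-0.35 ± 0.07, limma adjusted p = 0.015). All daily libraries were below all vehicle libraries for both genes. mt-Co3 differed by -0.30 ± 0.10 and was not called (adjusted p = 0.0736).

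Their copies moved the other way. Gm28661, the copy of mt-Co2, was at 6362, 2315 and 13949 TPM with vehicle and 26264, 28114 and 30628 TPM with daily prednisone (2.26 ± 0.51, limma adjusted p = 0.0207). Gm10925, that of mt-Atp6, rose by 2.18 ± 0.40 (adjusted p = 0.00966), Gm28437, that of mt-Co3, by 3.22 ± 0.73 (adjusted p = 0.0206) and Gm28438, that of mt-Nd3, by 0.61 ± 0.13 (adjusted p = 0.0159). The daily libraries exceeded all vehicle libraries for each of the 4. Gm29216, the partial copy of mt-Co1, differed by 0.12 ± 0.06 and was not called (adjusted p = 0.21).

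With gene and copy added, 7 of the 13 genes were called higher with daily prednisone and 0 lower, against 1.93% and 11.8% of 12241 genes tested (limma; 13.7% in either direction). The 3 genes that fell as listed were among the 7. mt-Co2 with its copy was at 34466, 38362 and 37566 TPM with vehicle and 41637, 41705 and 43017 TPM with daily prednisone (0.20 ± 0.05, limma adjusted p = 0.0277). mt-Nd3 with its copy went from 16671, 16812 and 17283 TPM to 18067, 18975 and 18923 TPM (0.14 ± 0.03, limma adjusted p = 0.0276). mt-Atp6 with its copy went from 43822, 47377 and 48763 TPM to 51754, 53348 and 54745 TPM (0.19 ± 0.05, limma adjusted p = 0.0348). In all 3 the daily libraries were now the higher ones.

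The other 4 called higher had no close copy to add, so their values are those listed. The fit over all genes gave them a smaller standard error. mt-Nd1, a core membrane subunit of complex I, was at 21819, 23049 and 22785 TPM with vehicle and 24347, 25306 and 25560 TPM with daily prednisone (0.15, adjusted p = 0.0564 as listed and 0.0348 with copies added, limma). mt-Nd2 was at 13079, 14219 and 14266 TPM with vehicle and 14924, 15617 and 15789 TPM with daily prednisone (0.16, adjusted p = 0.0641 and 0.0458). mt-Atp8 and mt-Nd6 were called both ways. The last 43 of the 204 bases of mt-Atp8 are also the start of mt-Atp6 and of Gm10925. Whether reads from that stretch were shared was not tested. The 6 not called with copies added were mt-Co3 at 0.10, mt-Nd4 at 0.08, mt-Nd4l at 0.12, mt-Cytb at 0.05, mt-Co1 at -0.03 and mt-Nd5 at -0.05 on the log2 scale. The last 2 lay above 0 under TMM scaling (trimmed means of the log ratios between libraries), where all 13 differences were above 0 with copies added.

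**Figure D4:**
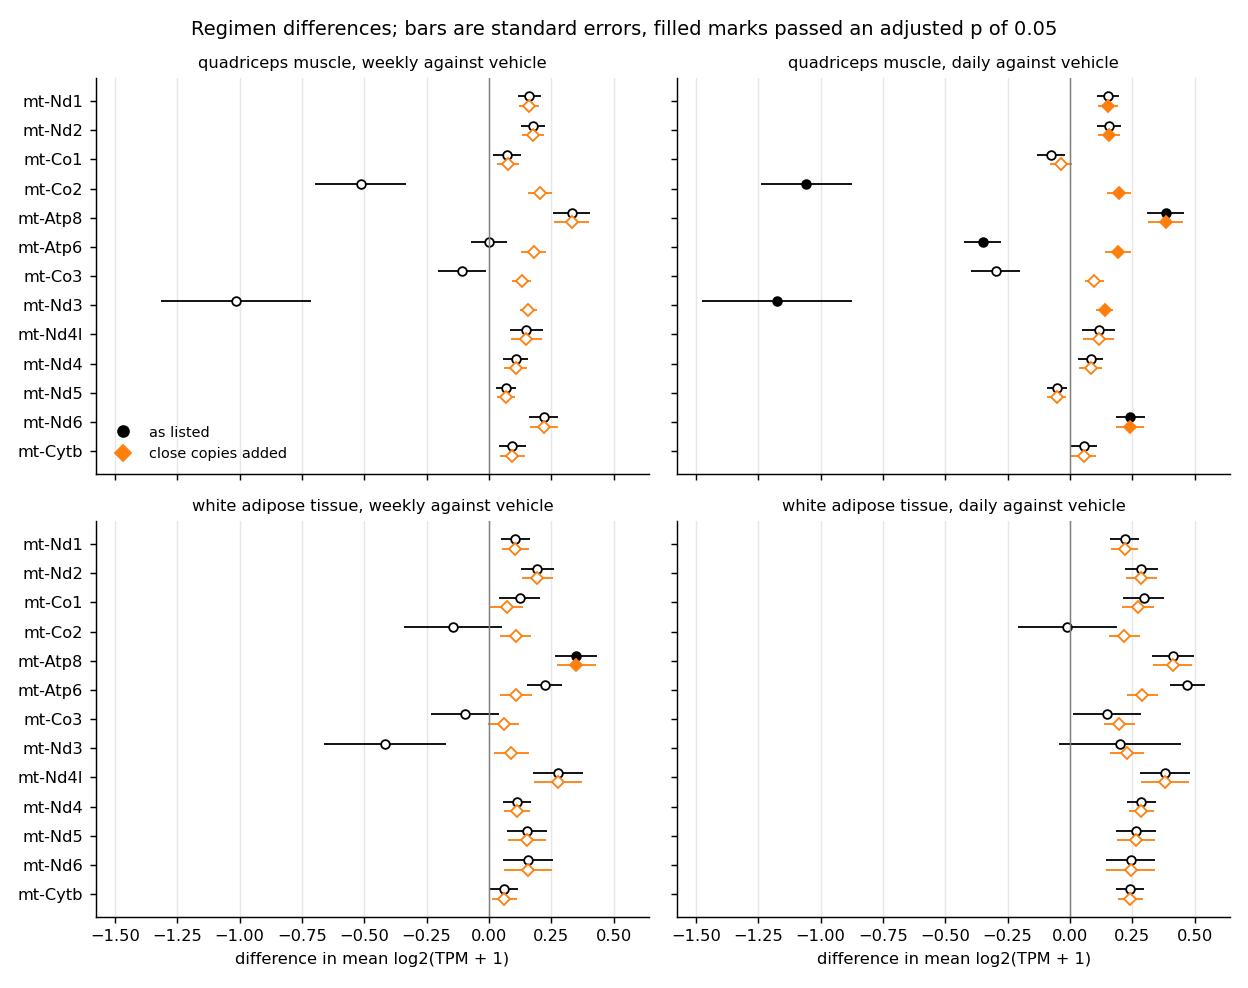
Difference in mean log2(TPM + 1) from vehicle for the 13 genes in genome order, by tissue and regimen, as listed (circles) and with close copies added (diamonds), with standard errors and filled marks for adjusted p under 0.05. In muscle under daily prednisone mt-Co2 lies at -1.06 as listed and at 0.20 with its copy, and mt-Nd3 at -1.18 and 0.14.

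Most of these calls depended on single libraries. By limma on the values as listed, mt-Co2 kept its call without any 1 of the 6 libraries. mt-Atp8 and mt-Atp6 lost it only without daily 3 (adjusted p = 0.0591 and 0.0671). mt-Nd3 and mt-Nd6 lost it without vehicle 1 (0.0917 and 0.0769), vehicle 2 (0.102 and 0.076), daily 2 (0.081 and 0.0662) or daily 3 (0.122 and 0.115). With copies added the count of 7 became 1 without vehicle 1, daily 2 or daily 3, 2 without vehicle 2 and 4 without vehicle 3. mt-Atp8 then kept its call without any 1 of the 6 libraries (limma, highest adjusted p = 0.0497). Without the third library of every group 0 of the 13 were called either way, with 8 genes called in all and 1967 at an unadjusted p under 0.05. The differences then were -1.13 for mt-Co2, -1.29 for mt-Nd3, -0.37 for mt-Atp6, 0.43 for mt-Atp8 and 0.25 for mt-Nd6 on the log2 scale. Macrophage markers (6 genes) summed to 125 to 183 TPM in the vehicle and 261 to 379 TPM in the daily muscle libraries, without overlap. The 3 endothelial markers summed to 59.5 to 62.7 TPM with vehicle and 51.3 to 57.0 TPM with daily prednisone, also without overlap, while the 9 slow or oxidative fibre genes overlapped at 3760 to 4800 and 3650 to 3840 TPM. None of these genes was at 0 in every library, and their part in these differences was not tested. Lyz2 made up most of the macrophage sum, at 97.3 to 315 TPM over all 9 muscle libraries. Mb made up most of the slow or oxidative fibre sum, at 3450 to 4600 TPM.

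Weekly prednisone against vehicle in muscle gave no call among the 13 genes as listed or with copies added, against 0.049% of all genes tested both ways (limma; 7 of the 13 and 1891 of all genes at an unadjusted p under 0.05). As listed, 10 of the 13 differences were above 0, and mt-Co2 (-0.51 ± 0.18), mt-Co3 (-0.11 ± 0.10) and mt-Nd3 (-1.01 ± 0.30) were below. With copies added 13 of 13 were above 0, from 0.07 for mt-Nd5 to 0.33 for mt-Atp8, with a median of 0.16 beside -0.07 over all genes. mt-Atp8 was at 53554, 53889 and 57932 TPM with weekly prednisone, above all 3 vehicle libraries and overlapping the daily ones. Its difference of 0.33 ± 0.07 had an adjusted p of 0.153 as listed and 0.128 with copies added (limma). mt-Nd6, at 6674, 6417 and 6997 TPM, also lay above the vehicle libraries (0.22 ± 0.06, adjusted p = 0.172). The weekly and daily comparisons share their vehicle libraries.

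The regimens themselves differed in muscle for 1 of the 13 genes as listed, against 1.77% of all genes tested, with 0.915% higher. mt-Atp6 was higher with weekly than with daily prednisone, at 42030, 43259 and 39063 TPM against 35129, 30399 and 31986 TPM (0.35 ± 0.07, limma adjusted p = 0.0493). With Gm10925 added the values were 50276, 54942 and 53185 TPM against 51754, 53348 and 54745 TPM, which overlapped (-0.01 ± 0.05, adjusted p = 0.93), and 0 of 13 genes were called, against 1.76% of all genes (limma; 2 of the 13 and 2128 of all genes at an unadjusted p under 0.05). mt-Nd5, a large complex I subunit with no close copy, was at 4126, 4059 and 4083 TPM with weekly and 3659, 3865 and 3749 TPM with daily prednisone. Those groups did not overlap, and the gene was not called (0.12 ± 0.04, limma adjusted p = 0.164). The call for mt-Atp6 was lost without weekly 1 (adjusted p = 0.172), weekly 2 (0.12), weekly 3 (0.0981), daily 2 (0.0922) or daily 3 (0.192), and without the third libraries (0.551). Between the same weekly and daily libraries macrophage markers summed to 134 to 139 against 261 to 379 TPM, slow or oxidative fibre genes to 4200 to 4330 against 3650 to 3840 TPM and skeletal muscle fibre genes to 124000 to 130000 against 133000 to 140000 TPM, each without overlap, and their part was not tested.

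In adipose tissue weekly prednisone against vehicle gave 1 call among the 13 genes, against 7.43% of 14150 genes tested, 5.72% higher and 1.72% lower. With copies added it was again 1 of 13, against 7.6% of all genes, 5.82% higher. mt-Atp8 rose, from 23490, 23174 and 22496 TPM with vehicle to 31645, 28122 and 28520 TPM with weekly prednisone, with no overlap (0.35 ± 0.08, limma adjusted p = 0.0405 as listed and 0.0339 with copies added). The call as listed was lost without vehicle 1 (adjusted p = 0.0738), vehicle 2 (0.0785), vehicle 3 (0.127), weekly 1 (0.0908) or weekly 3 (0.103), and without the third libraries (0.352). mt-Atp6 (0.22 ± 0.07, adjusted p = 0.0765), mt-Nd2 (0.19 ± 0.07, adjusted p = 0.0897) and mt-Nd4l (0.28 ± 0.10, adjusted p = 0.0982) had the next smallest adjusted p as listed and were not called. With copies added 13 of 13 differences were above 0 with a median of 0.11, and the median of all genes was 0.13. TMM scaling, which shifts the median of all genes from 0.13 to -0.02, put 9 of the 13 below 0 as listed and 10 with copies added. It left mt-Atp8 at 0.17, not called (limma adjusted p = 0.374 as listed and 0.335 with copies added). Leaving out the 3 adipose libraries with most muscle transcripts leaves 1 weekly library, assumed to vary like the other groups. It gave 3 calls, all higher, with 2138 of all genes called in place of 1052.

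With daily prednisone the mitochondrial genes of adipose tissue lay further from vehicle but did not pass the adjustment. By limma 0 of the 13 were called, against 0.00707% of all genes tested as listed and 0% with copies added, while 10 of the 13 as listed and 1305 of all genes had an unadjusted p under 0.05. With copies added 13 of 13 were above 0 and had an unadjusted p under 0.05, from 0.20 for mt-Co3 to 0.41 for mt-Atp8 with a median of 0.27, beside a median of 0.01 over all genes. mt-Nd4, a complex I subunit whose copy was listed at 0, was at 8996, 8782 and 9105 TPM with vehicle and 10574, 11086 and 11144 TPM with daily prednisone. mt-Cytb, the only complex III subunit of this genome, was at 11093, 10766 and 11149 TPM with vehicle and 12621, 13320 and 13104 TPM with daily prednisone. Both had groups that did not overlap, with log2 differences of 0.29 ± 0.06 (limma adjusted p = 0.251) and 0.24 ± 0.06 (adjusted p = 0.313). All 13 stayed above 0 with copies added under TMM scaling, with a median of 0.25.

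Weekly and daily prednisone did not differ by the test for any of the 13 genes in adipose tissue, against 0.311% of all genes tested (limma; 4 of the 13 and 2242 of all genes at an unadjusted p under 0.05). All 13 differences of weekly from daily prednisone were below 0, from -0.20 to -0.06 on the log2 scale with copies added. Macrophage markers summed to 1240 to 1590 TPM with vehicle, 1700 to 1910 TPM with weekly and 1690 to 1720 TPM with daily prednisone in adipose tissue, and 4 brown or beige adipocyte markers to 130 to 207, 96.2 to 105 and 107 to 144 TPM. The 4 fibroblast markers summed to 870 to 920 TPM with vehicle, 1030 to 1150 TPM with weekly and 803 to 909 TPM with daily prednisone, and the 3 endothelial markers to 165 to 175, 189 to 264 and 140 to 180 TPM. The 9 white adipocyte markers summed to 39500 to 40100 TPM with vehicle, 37800 to 38800 TPM with weekly and 36100 to 39100 TPM with daily prednisone, so both treated groups lay below vehicle. The 9 slow or oxidative fibre genes gave 58.9 to 67.7, 86.4 to 103 and 61.1 to 81.5 TPM. Of these sums Atp2a2 alone held 46.4 to 75.8 TPM over all adipose libraries, above its 10.7 to 17.2 TPM in muscle. Lyz2 alone held 968 to 1470 TPM of the macrophage sums. None of these genes was at 0 in every library. Muscle transcripts were high in weekly 2, weekly 3 and daily 2, and without these libraries the share of TPM on the 13 genes was 1.63 percentage points above vehicle in the 1 weekly library that remained and 3.61 in the 2 daily libraries, against 1.46 and 3.11 with all libraries. The part of the other cell types was not tested.

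Whether an effect differed between tissues was tested on the per-mouse difference. For daily prednisone 1 of the 13 genes was called, against 0.0511% of 11737 genes tested, with 0.017% lower. mt-Atp6 differed from vehicle by -0.35 in muscle and by 0.47 in adipose tissue as listed, a difference between tissues of -0.82 ± 0.10 (limma adjusted p = 0.0441). With Gm10925 added these were 0.19 and 0.29, and the difference between tissues was -0.10 ± 0.10 (adjusted p = 0.696), and 0 of 13 were called, against 0.0426% of all genes (limma; 2 of the 13 and 1611 of all genes at an unadjusted p under 0.05). The call was lost without any 1 of the 9 mice (adjusted p from 0.0635 to 0.236). For mt-Co2 and mt-Nd3 the tissues differed by -1.05 ± 0.27 (adjusted p = 0.192) and -1.38 ± 0.32 (adjusted p = 0.16) as listed, and by -0.02 ± 0.11 and -0.09 ± 0.10 with copies added. For weekly prednisone 0 of the 13 were called, against 2.78% of all genes as listed and 2.79% with copies added, and 0 had an unadjusted p under 0.05 while 3294 of all genes did (limma).

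Nuclear genes of the respiratory chain, among them those of complex II, which has no subunit from the mitochondrial genome, were also counted. Of 78 nuclear genes of the respiratory chain and ATP synthase, all of them tested, 43 fell and 0 rose in muscle with daily prednisone (limma), against 11.8% of all genes called lower. Their median difference was -0.21, beside -0.09 over all genes. Atp5a1, the alpha subunit of ATP synthase, fell by 0.39 on the log2 scale, from 1111 ± 10.5 to 845 ± 10.5 TPM (SD, n = 3, limma adjusted p = 0.00202), and Sdha, the flavoprotein of complex II, by 0.36, from 344 ± 9.93 to 268 ± 5.07 TPM (adjusted p = 0.00225). The count of 43 became 15 under TMM scaling, 29 without daily 3 and 0 without the third libraries, with medians of -0.11, -0.19 and -0.20. It was 45 with the replicate number as a block. With libraries scaled to the TPM outside the mitochondrial genes it was 47, with a median of -0.24 beside -0.12 over all genes. Summed, the 78 genes took 5.58, 5.55 and 5.38% of all TPM with vehicle, 5.08, 5.21 and 5.08% with weekly and 4.83, 4.79 and 4.74% with daily prednisone. The 3 muscle groups did not overlap. Between the regimens 4 of the 78 were higher with weekly than with daily prednisone, against 0.915% of all genes, among them Sdha (0.26, adjusted p = 0.0193) and Cox6a2, the muscle form of a complex IV subunit (0.22, adjusted p = 0.0435). That count was 1 under TMM scaling and without weekly 2, daily 1 or daily 2. It was 0 without weekly 1, weekly 3, daily 3 or the third libraries and with the replicate number as a block. With libraries scaled to the TPM outside the mitochondrial genes it was 8.

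In adipose tissue 21 of the 78 fell and 0 rose with weekly prednisone, against 1.72% of all genes called lower, with a median of -0.24 beside 0.13 over all genes. Ndufs8 and Ndufb2, both subunits of complex I, fell by 0.34 (limma adjusted p = 0.0147) and 0.49 (adjusted p = 0.0167) on the log2 scale. The count was 39 under TMM scaling, 8 with the replicate number as a block and 0 without the third libraries. It was 4 without vehicle 1 or weekly 1, 8 without vehicle 2, 0 without vehicle 3 and 1 without weekly 3, while the median stayed between -0.28 and -0.20. With daily prednisone 0 of the 78 were called, with a median of -0.16.

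**Figure D5:**
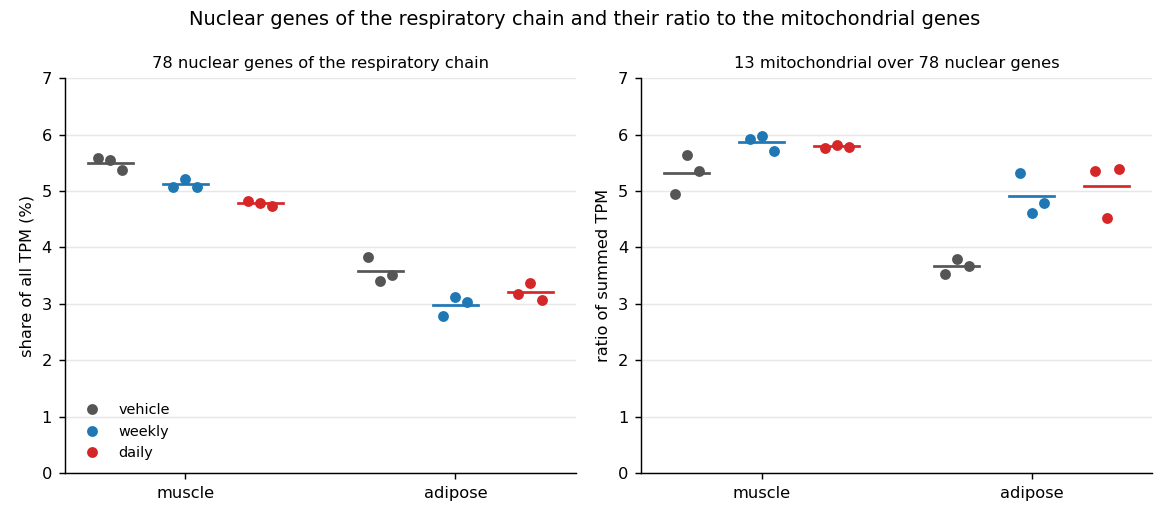
Left, share of all TPM (percent) on 78 nuclear genes of the respiratory chain and ATP synthase; right, summed TPM of the 13 mitochondrial genes over that of the 78 nuclear genes; a point per library and a line at each group's mean. The nuclear share in muscle falls from 5.38 to 5.58% with vehicle to 4.74 to 4.83% with daily prednisone, and the ratio in adipose tissue is 3.53 to 3.79 with vehicle and 4.53 to 5.4 in the treated libraries.

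The ratio of the TPM of the 13 mitochondrial genes to that of these 78 nuclear genes does not depend on the scaling between libraries. In muscle it was 4.95, 5.64 and 5.36 with vehicle, 5.92, 5.98 and 5.72 with weekly and 5.77, 5.82 and 5.79 with daily prednisone. In adipose tissue it was 3.53, 3.79 and 3.68 with vehicle, 5.32, 4.61 and 4.79 with weekly and 5.35, 4.53 and 5.4 with daily prednisone. In both tissues each treated library was above each vehicle library. With close copies counted as mitochondrial the means with vehicle, weekly and daily prednisone were 6.3 ± 0.404, 7.59 ± 0.184 and 8.04 ± 0.238 in muscle and 4.92 ± 0.193, 6.5 ± 0.515 and 6.69 ± 0.416 in adipose tissue (SD, n = 3). No test was run on this ratio, which was formed after seeing the data.

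Lists of genes that maintain and express the mitochondrial genome had few calls. Of 15 tested genes for the upkeep and transcription of mitochondrial DNA, 1 fell in muscle with daily prednisone: Twnk, the helicase that unwinds this DNA for copying, from 8.13 ± 0.0926 to 6.33 ± 0.397 TPM (SD, n = 3, limma adjusted p = 0.0142). Of 28 genes for the processing and stability of mitochondrial RNA, 4 fell there and 0 rose. Of all genes 11.8% were called lower in this comparison, so both counts were near that share or below it. Among the 4 were Lrpprc, which binds and stabilises mitochondrial messengers (-0.35, adjusted p = 0.00841), and Tbrg4 (-0.45, adjusted p = 0.0119). In adipose tissue with weekly prednisone 0 of 16 genes of the first list and 2 of 28 of the second were called, both lower, against 1.72% of all genes called lower: Slirp, the partner of Lrpprc (-0.46, adjusted p = 0.0437), and Hsd17b10, a subunit of the mitochondrial RNase P (-0.31, adjusted p = 0.046). In the other 4 regimen comparisons 0 genes of both lists were called. Twnk was not called without daily 3. The counts of 1 and 4 in muscle were 2 and 6 with libraries scaled to the TPM outside the mitochondrial genes. The count of 4 in muscle became 1 under TMM scaling or without daily 3 and 2 without vehicle 1 or vehicle 2, and that of 2 in adipose tissue 0 without any single library other than weekly 2. Without the third libraries 0 genes of these lists were called in any regimen comparison.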

How the data were processed

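RNA was sequenced from stranded mRNA libraries of quadriceps and white adipose tissue, per the labels' protocols. The authors deposited 1 table of TPM per transcript for all 18 libraries, each summing to 1000000; HISAT2, kallisto, Trimmomatic and mm10 are named in the submitters' processing notes, without version or role. The depth per library is not given in the sources used here, so no counting error could be set.

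TPM was summed per gene symbol. A gene entered the tests of a tissue if 3 or more of its libraries reached 1 TPM. Tests were made on log2(TPM + 1) with limma 3.58.1 (R 4.3.3, intensity trend, 3 regimens fitted together, Benjamini-Hochberg over all genes, threshold 0.05), checked on simulated data. Tissue effects used the difference within each mouse. Nuclear copies were found with blastn 2.17.0 among GENCODE M21 transcripts, which 99505 of 105129 table transcripts match by ID and version. Shares were tested by exact permutation. Alternatives covered the pseudocount, filter, scaling, replicate block, groups fitted and libraries left out. Every gene of the mitochondrial genome is named, with its close copies, and for each pathway list the genes with the smallest adjusted p. Members and lists were chosen with earlier results of these data known.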

Additional observations from a re-analysis of the deposited data

Results flagged for a closer look

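The effect of daily prednisone on mt-Atp6 differed between the tissues by -0.822 on the log2 scale (limma adjusted p = 0.0441), as listed in the table. With Gm10925, its nuclear copy, added to it, the difference was -0.10 (adjusted p = 0.696).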

How the results depend on the processing

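Adding each close copy to its gene, chosen after seeing the data, reversed 3 calls for daily prednisone in muscle, to 0.193 for mt-Atp6, 0.196 for mt-Co2 and 0.14 for mt-Nd3 on the log2 scale, and took mt-Atp6 between the regimens to -0.0137. The muscle share under daily prednisone became 3.86 percentage points above vehicle. Of the 13 genes as listed, 5 were called for daily prednisone in muscle; this became 1 with no filter on low values, 3 under TMM scaling, 8 with the replicate block and 0 without the third libraries, and with copies added the count of 7 became 4 under TMM scaling and 0 without the third libraries. The 1 call between the regimens in muscle became 0 with a pseudocount of 5, no filter, only the 2 groups, the replicate block, leaving out the third libraries or copies added. The 1 call for weekly prednisone in adipose tissue became 0 with no filter (as listed only), TMM scaling, the block or leaving out the third libraries, and 3 without the adipose libraries with most muscle transcripts (chosen with earlier results of these data known), which leaves 1 weekly library and 2138 of all genes called. The 1 call for the difference between tissues became 0 with a pseudocount of 0.1, either scaling, the block, leaving out the third libraries, copies added or without the mice of those adipose libraries (added after seeing the data). Leaving out 1 replicate at a time gave 1 to 5 calls for daily prednisone in muscle (1 to 7 with copies added), 0 to 1 between the regimens, 0 to 1 for weekly prednisone in adipose tissue both ways, and 0 for the difference between tissues. The cause of these changes was not tested. Same-numbered libraries of a tissue did not deviate together (median correlation -0.0304 in muscle and 0.0295 in adipose tissue). Whether the numbers stand for a pairing or a batch was not tested further. Read depth is not given, so its limit on low genes could not be set.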
